A study of Mus musculus with 35 samples.

Results

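The 9 transcription factors of the primitive streak and the early mesoderm, T (Brachyury, also written Tbxt), Eomes, Mixl1, Mesp1, Gsc, Evx1, Tbx6, Lhx1 and Msgn1, were followed by name through the RNA-seq of neuroectoderm (NE) cells that carried normal, catalytically inactive or deleted Tet3. The genes were taken by symbol from 3 tables of normalized counts. Of the 9 names, 7 were measured (T, Eomes, Mixl1, Gsc, Evx1, Tbx6 and Lhx1), among 17948 genes at day 3 and 17705 in the Tet3-CD experiment, and 6 of them (without Evx1) among 18091 genes in the Dnmt1 experiment. Mesp1 and Msgn1 were not analysed here.

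TET3 is a dioxygenase that oxidizes 5-methylcytosine and also acts through partner proteins, and the study asked which of these roles matters when mouse embryonic stem cells (ESCs) become NE. ESCs of V6.5, a male hybrid mouse line, were differentiated by withdrawal of LIF and 72 h in 1 µM retinoic acid. The groups were Tet3+/+ cells, Tet3m/m cells with amino acid substitutions in the iron-binding site of the catalytic domain, and Tet3-/- cells lacking exon 4, with 3, 3 and 2 independent clones. In the Dnmt1 experiment the cells of each genotype received empty vector (EV) or myc-tagged Dnmt1 as ESCs (2 libraries a group). These cells were treated with blasticidin before harvest, a step not described for the day 3 clones or the Tet3-CD experiment. In the Tet3-CD experiment the cells received EV or the HA-tagged catalytic domain of Tet3 during differentiation (1 library a group). For the Tet3-CD experiment the study's methods place the harvest later than the 72 h of the labels, so its cells may be older than those of the other experiments. The sources do not say whether the 2 libraries of a transfected group came from separate cultures or clones, so their p-values may measure technical spread only. The ESCs were grown on feeder fibroblasts that were removed by pre-plating before use.

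The primitive streak is the region of the gastrulating embryo through which epiblast cells pass to become mesoderm and definitive endoderm. Nodal, Wnt and Fgf signals from the epiblast switch on its T-box factors (Eomes, T and later Tbx6) and homeobox factors (Mixl1, Gsc, Evx1 and Lhx1). Cells on the neural route normally keep T, Eomes and Mixl1 low, and retinoic acid together with the absence of Nodal and Wnt signals favours that route. In these bulk libraries, fewer cells of a type and less RNA per cell cannot be told apart.

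Eomes, Gsc and Lhx1 are shown here by their promoters because they were higher together in Tet3m/m cells with EV, and T because it names the T-box family. The 250 bases before the start site in RefSeq (GRCm38.p6) read 5′ to 3′ as follows, with capitals marking AGGTGT or its complement (the core letters that T-box factors bind) or TATAAA (an element of core promoters).
Eomes, chr9:118477939-118478188, plus strand: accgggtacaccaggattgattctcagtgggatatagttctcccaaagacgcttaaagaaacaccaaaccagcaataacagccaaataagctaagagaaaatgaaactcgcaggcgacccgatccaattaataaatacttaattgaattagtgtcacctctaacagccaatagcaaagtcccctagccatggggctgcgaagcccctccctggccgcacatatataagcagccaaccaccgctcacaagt
Gsc, chr12:104473237-104473486, minus strand: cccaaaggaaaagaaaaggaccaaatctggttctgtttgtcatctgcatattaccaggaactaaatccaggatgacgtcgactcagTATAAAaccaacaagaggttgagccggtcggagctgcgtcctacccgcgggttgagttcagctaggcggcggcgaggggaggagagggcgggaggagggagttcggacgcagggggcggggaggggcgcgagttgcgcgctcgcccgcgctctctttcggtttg
Lhx1, chr11:84525535-84525784, minus strand: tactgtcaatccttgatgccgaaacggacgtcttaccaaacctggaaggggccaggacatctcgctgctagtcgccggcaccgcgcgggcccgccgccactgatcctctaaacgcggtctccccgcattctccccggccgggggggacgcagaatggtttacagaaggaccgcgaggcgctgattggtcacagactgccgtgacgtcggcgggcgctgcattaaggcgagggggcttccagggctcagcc
T, chr17:8434173-8434422, plus strand: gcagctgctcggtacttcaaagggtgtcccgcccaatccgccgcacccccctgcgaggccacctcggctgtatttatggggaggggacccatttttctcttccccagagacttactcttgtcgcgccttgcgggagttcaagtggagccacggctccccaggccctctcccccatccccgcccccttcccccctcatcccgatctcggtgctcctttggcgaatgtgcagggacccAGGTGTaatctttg
Both strands were searched. AGGTGT was found at position -14 from the start of T and in no other of these 4 windows, against 11.8% of 32851 promoter windows of the same length. TATAAA was found in the Gsc window, at position -164, against 12.4% of all windows. The FOXH1 letters TGTNNATT (10.9% of all windows), the TCF/LEF letters CTTTGAT (3.21%) and the SMAD letters GTCTAGAC (0.167%) were in none of the 4. The 8 members with a RefSeq promoter were all searched, Mixl1 having no entry. In the 4 windows not printed, AGGTGT was found for Evx1 (-38) and Mesp1 (-233), CTTTGAT for Mesp1 (-31) and Msgn1 (-203) and TATAAA for Tbx6 (-43). The share of G and C was 46.4% before Eomes, 59.2% before Gsc, 64.8% before Lhx1 and 62.8% before T. The motifs were picked after the sequences had been seen, and a match is a description of letters and not of a bound site.

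All 26 RNA-seq libraries carried between 31155842 and 50845950 assigned reads. The targeted gene itself was measured in every library. At day 3 Tet3 was 4613, 4576 and 5020 normalized counts in the Tet3+/+ clones, 2666, 2277 and 1945 in Tet3m/m and 1796 and 2329 in Tet3-/-, so that both mutants lay below Tet3+/+. In the EV libraries of the Dnmt1 experiment Tet3 was 2957 and 3075 in Tet3+/+, 964 and 1125 in Tet3m/m and 2520 and 2571 in Tet3-/-, so that the library pair labelled Tet3-/- lay within 1.18-fold of Tet3+/+. Whole-gene counts test neither the substitutions nor the loss of exon 4. The 12 neuroectoderm markers (among them Sox1, Pax6 and Nes) had counts above 0 summed over each group, with sums of 17202 to 34154 normalized counts over the day 3 clones.

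At day 3 the streak factors spanned very low to middling levels. Per kb of annotated exon, Lhx1 had the highest mean level in Tet3+/+ clones, at 91.1 ± 15.7 normalized counts per kb (SD, n = 3). Tbx6 (27.9 ± 4.16), T (24.8 ± 5.67) and Eomes (19.5 ± 4.09) followed. T overlapped with both of the others (20.0 to 31.1), while each Tbx6 clone (23.5 to 31.8) was above each Eomes clone (15.2 to 23.4). Gsc (12.1 ± 0.344), Mixl1 (5.95 ± 2.97) and Evx1 (2.43 ± 2.35) were lowest, and Evx1 was at 0 in 1 of the 3 clones. By its normalized count, not adjusted for length, Lhx1 stood at percentile 43.0 of all genes in the table and Mixl1 at percentile 6.77.

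Eomes, the T-box factor that starts mesendoderm formation, was the member that rose in Tet3m/m NE cells at day 3. It had 82.9, 97.1 and 63.3 normalized counts in the Tet3+/+ clones and 226, 325 and 293 in the Tet3m/m clones. Each Tet3m/m clone was above each Tet3+/+ clone. The rise was 1.79 ± 0.31 (SE) on the log2 scale, with a limma adjusted p of 0.00439, and it ranged from 1.62 to 1.94 when single clones were left out.

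Mixl1, a homeobox gene switched on by Nodal signals in the streak, had 13.5, 20.5 and 6.92 normalized counts in Tet3+/+ and 54.3, 20.2 and 62.1 in Tet3m/m. Clones 1 and 3 of Tet3m/m were above the Tet3+/+ range, and clone 2 lay within it. The log2 fold change of 1.64 ± 0.56 did not pass (limma adjusted p = 0.0818). The call depended on the tool and on clone 2: Mixl1 passed with DESeq2 on the recovered reads (adjusted p = 0.0295), did not with edgeR (0.0705), and had a log2 fold change of 2.13 without clone 2 of Tet3m/m.

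The other 5 members gave no call between Tet3m/m and Tet3+/+ at day 3. Lhx1, a LIM homeobox factor of the streak and the node, had 439, 311 and 364 normalized counts in Tet3+/+ and 400, 373 and 480 in Tet3m/m. Tbx6, which directs cells to paraxial mesoderm, had 42.4, 51.4 and 57.3 against 50.2, 45.5 and 57.0. T, the factor of posterior mesoderm and notochord, had 46.3, 71.9 and 54.4 against 32.8, 71.7 and 53.0. The groups overlapped for all 3. Gsc, a homeobox repressor of the anterior streak and the organizer, held between 14.9 and 15.8 in Tet3+/+ and spread from 8.19 to 21.9 in Tet3m/m. Of the 7 members, 1 was called (Eomes, higher), beside 10.2% of the 17915 genes tested (5.06% higher). Being called meant that both the fold exceeded 1.5 and the adjusted p of limma, by the procedure of Benjamini and Hochberg over all genes, was below 0.05. Eomes was also the 1 of 7 whose groups did not overlap, beside 36.7% of all genes.

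Evx1, a homeobox factor of the posterior streak, had 13.5, 7.47 and 0 normalized counts in Tet3+/+, 8.19, 6.74 and 10.2 in Tet3m/m and 42.4 and 9.11 in Tet3-/-. Clone 1 of Tet3-/- alone stood above all others. Evx1 reached the minimum mean of 10 only through that clone, so its fit is not read as a result. It still counts among the tested members. Its difference between Tet3m/m and Tet3+/+ turned on the clone at 0 (log2 fold change 0.90 with it and -0.26 without). Evx1 lies on chromosome 6, the chromosome of Tet3. For the 40 measured genes nearest to it the median was -0.93 (log2) in Tet3m/m, with 37 lower and 24 called, and of 0.01 in Tet3-/-. The same median lay between -0.06 and 0.06 in Tet3m/m around each of the other 6 members. The part of this chromosome segment in the Evx1 values was not tested.

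In Tet3-/- NE cells at day 3 no member was called against Tet3+/+, beside 0.642% of all genes tested. At an unadjusted limma p under 0.05 were 2 members (T and Eomes), beside 3608 of the 17915 genes tested. The same count of 0 calls came from edgeR and DESeq2. DESeq2 gave no adjusted p for Evx1 and Gsc, so it could not call them. The 115 genes behind that share depended on single libraries: 0 genes were called without clone 1 or 3 of Tet3+/+, clone 2 of Tet3m/m or either clone of Tet3-/-, 2 without clone 2 of Tet3+/+, and 706 and 565 without clones 1 and 3 of Tet3m/m. Among the members, the 2 Tet3-/- clones differed most in T. It had 2.12 and 34.2 normalized counts, both under the lowest Tet3+/+ clone (46.3), with a log2 fold change of -2.46 ± 0.82 (limma adjusted p = 0.136). The ratio of the group means was 3.17, and edgeR and DESeq2 gave a log2 fold change of -1.67. The limma value was -4.21 without clone 2 and -0.71 without clone 1, in which T rested on 2 reads. T was the 1 of 7 members whose groups did not overlap, beside 41.2% of all genes.

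Eomes had 210 normalized counts in clone 1 of Tet3-/- and 93.4 in clone 2, the latter within the Tet3+/+ range. Its log2 fold change was 0.80 ± 0.35 (limma adjusted p = 0.232). Clone 1 of Tet3-/- was thus the clone with the higher Eomes (210 against 93.4), Mixl1 (25.5 against 15.9) and Evx1 (42.4 against 9.11). The same clone had the lower T, Tbx6 (30.8 against 62.6) and Gsc (6.36 against 15.9), while Lhx1 was alike (396 and 411). Between Tet3-/- and Tet3m/m, no member was called, beside 9.73% of all genes, and edgeR and DESeq2 also called 0. An unadjusted limma p under 0.05 was reached by 2 members (T and Eomes), beside 5017 of the 17915 genes tested. Without clone 1 of Tet3-/-, Eomes was called lower in Tet3-/- than in Tet3m/m (log2 fold change -1.57, limma adjusted p = 0.0274). Without clone 2, T was called lower (-4.03, 0.00592).

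**Figure D1:**
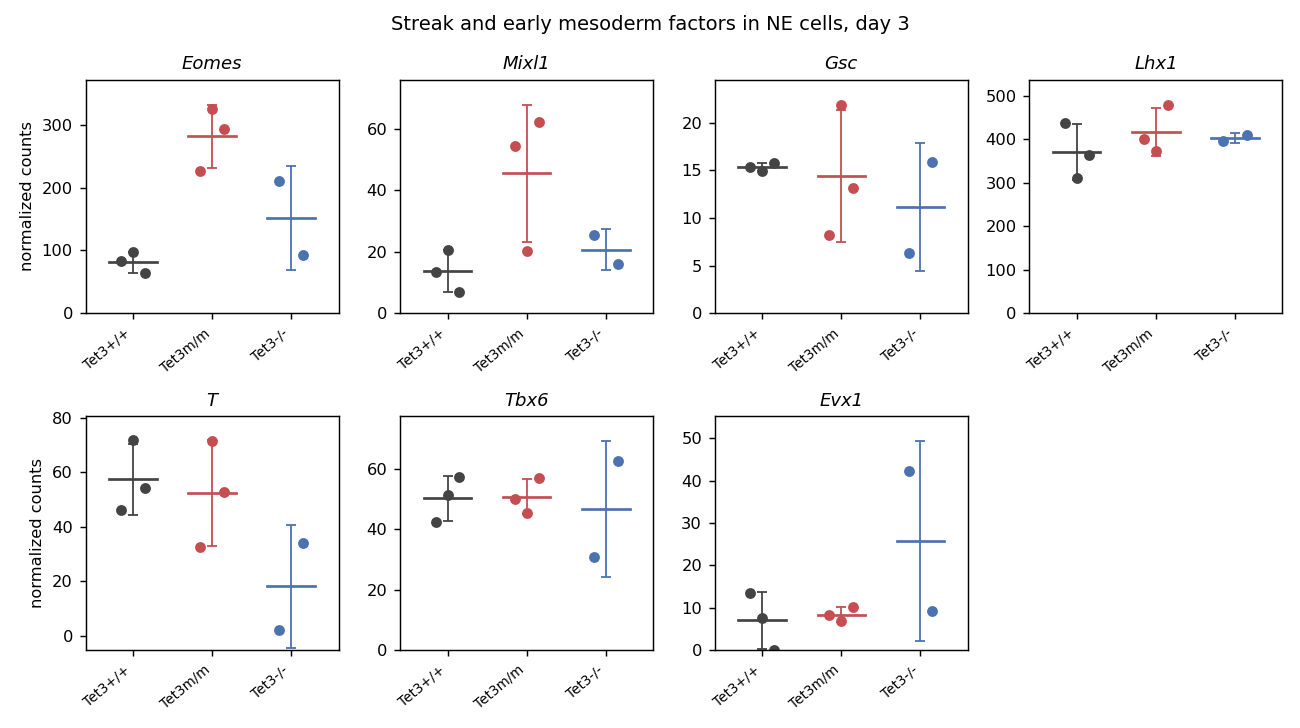
Normalized counts of 7 streak and early mesoderm factors in each day 3 NE clone (y axis, 1 scale for each gene), by genotype (x axis). Points are clones, horizontal lines are means and whiskers are SD, which reach below 0 for T in Tet3-/-. The 3 Tet3m/m clones lie between 226 and 325 for Eomes, above the Tet3+/+ clones.

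The Dnmt1 experiment gave a second set of the same genotypes through its EV libraries, from transfected cells treated with blasticidin. There, 4 of 6 members were higher in Tet3m/m than in Tet3+/+, beside 10.3% of the 18055 genes tested that were called higher (21.2% in either direction). The groups did not overlap for 5 of 6, beside 72.3% of all genes. Eomes had 259 and 318 normalized counts in Tet3+/+ and 1075 and 1145 in Tet3m/m, a log2 fold change of 1.95 ± 0.13 (limma adjusted p = 7.34e-11). Mixl1 had 16.8 and 13.9 in Tet3+/+ and 47.5 and 54.7 in Tet3m/m (1.67 ± 0.44, adjusted p = 0.00375). These log2 fold changes stood beside the day 3 values of 1.79 for Eomes and 1.64 for Mixl1.

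Lhx1 and Gsc were called in the EV libraries and not at day 3. Lhx1 had 78.0 and 99.7 normalized counts in Tet3+/+ with EV and 215 and 260 in Tet3m/m with EV, a log2 fold change of 1.41 ± 0.21 (limma adjusted p = 7.81e-06). Gsc had 19.8 and 25.5 in Tet3+/+ and 54.8 and 52.1 in Tet3m/m (1.21 ± 0.40, adjusted p = 0.0160). All 4 Tet3m/m values were above those of Tet3+/+ for these genes. The call of Gsc was lost without the Tet3+/+ library at 19.8 (limma adjusted p = 0.103) or without either Tet3m/m library (0.0709 and 0.0553). Tbx6 (50.4 and 55.7 against 45.7 and 54.7) and T (18.8 and 19.7 against 20.1 and 43.0) were not called. Whether the day 3 and EV differences of Lhx1 and Gsc differ from each other was not tested, since the tables were normalized separately. The EV cells had also been transfected and treated with blasticidin.

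Eomes went the other way in Tet3-/- cells with EV. It had 52.8 and 59.2 normalized counts there, 5.06-fold under Tet3+/+ (log2 fold change -2.34 ± 0.13, limma adjusted p = 5.24e-12) and 19.5-fold under Tet3m/m (-4.29 ± 0.13, 3.55e-17). Of 6 members, 1 was lower and 2 were higher in Tet3-/- than in Tet3+/+, beside 24.9% of all genes called in either direction (11.0% higher and 13.9% lower).

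T and Lhx1 were the members that were higher in Tet3-/- cells with EV. T had 45.5 and 63.5 normalized counts against 18.8 and 19.7 (log2 fold change 1.44 ± 0.48, limma adjusted p = 0.0167). Its call was lost without either Tet3+/+ library (limma adjusted p = 0.0668 and 0.0558) or without the Tet3-/- library at 63.5 (0.119). Lhx1 had 204 and 176 against 78.0 and 99.7 (1.09 ± 0.21, adjusted p = 0.000146).

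Mixl1 (17.9 and 14.8 against 16.8 and 13.9) and Tbx6 (52.0 and 40.2 against 50.4 and 55.7) were not called. Gsc had 13.0 and 10.6 normalized counts, both under the Tet3+/+ libraries, and missed the threshold (-0.88 ± 0.40, limma adjusted p = 0.0679). Against Tet3m/m with EV, Tet3-/- cells had lower Eomes, Gsc (-2.10 ± 0.40, adjusted p = 9.04e-05) and Mixl1 (-1.59 ± 0.44, 0.00356). These were 3 of 6 members, beside 20.6% of all genes called lower and 39.6% called in either direction. Thus Lhx1 was above Tet3+/+ in both mutants (-0.32 ± 0.21 between them, limma adjusted p = 0.184), whereas Eomes lay above Tet3+/+ in Tet3m/m and below it in Tet3-/-.

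**Figure D2:**
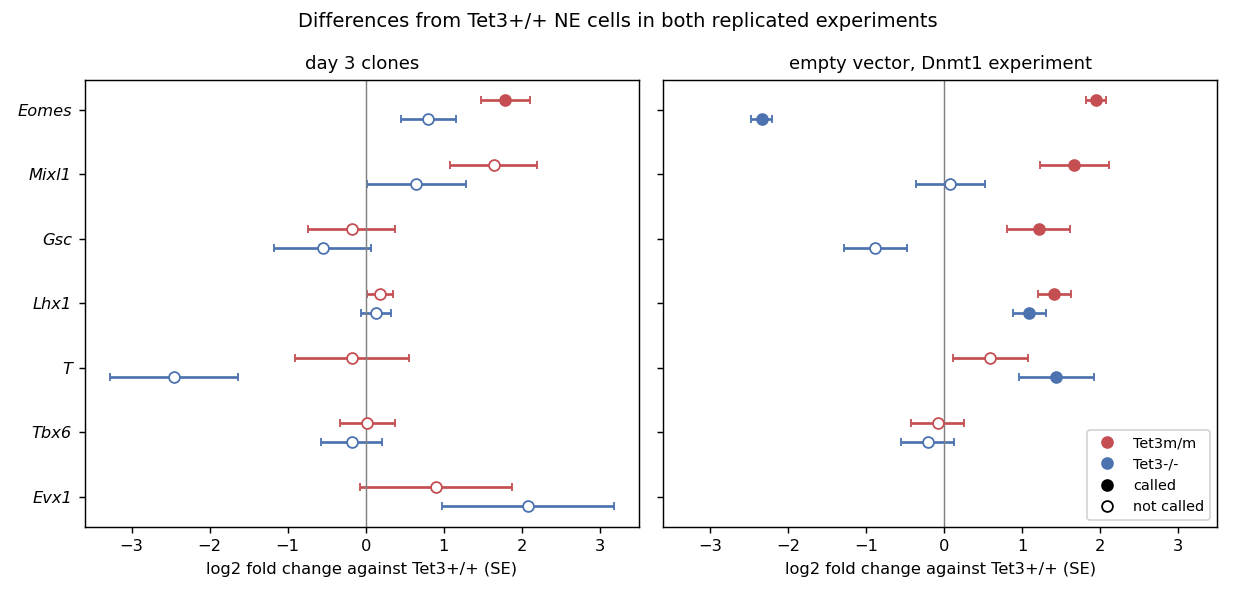
Log2 fold change against Tet3+/+ (x axis, whiskers are SE) of each member (y axis) at day 3 (left, 7 members) and in the EV libraries of the Dnmt1 experiment (right, 6 members). Filled points were called. Eomes in Tet3m/m is near 1.79 and 1.95 in the 2 panels, and T in Tet3-/- is at -2.46 on the left and 1.44 on the right.

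Marker RNA of other cell types also differed between the same groups. Summed over 10 pluripotency genes, the EV libraries of the Dnmt1 experiment held 27298 and 27650 normalized counts in Tet3+/+, 76455 and 76896 in Tet3m/m and 5040 and 5405 in Tet3-/-. Of these 10 genes, 9 were called higher in Tet3m/m with EV (median log2 fold change 1.32, against 0.01 over all genes) and 9 lower in Tet3-/- with EV (median -2.59, against 0.00). The order of the 3 genotypes in the summed list was that of Eomes.

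The 10 primitive and visceral endoderm markers, a lineage in which Eomes is also expressed, summed to 136566 to 143419 in Tet3+/+ with EV, 326637 to 368718 in Tet3m/m and 38746 to 40220 in Tet3-/-. Of them, 9 were called higher in Tet3m/m and 8 lower in Tet3-/-. The 7 fibroblast genes summed to 17673 to 19424, 2884 to 3145 and 36285 to 36286 in the same order of genotypes. No listed gene of these 3 lists was at 0 in a whole EV group. Their part in the member values was not tested.

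At day 3 the pluripotency and endoderm lists were less far apart. The pluripotency sum was 6085 to 9253 normalized counts in Tet3+/+, 6823 to 18504 in Tet3m/m and 5102 to 9129 in Tet3-/-, and none of the 10 genes was called in either mutant. In the order of clones 1 to 3 the sums were 7043, 9253 and 6085 in Tet3+/+ and 6823, 11163 and 18504 in Tet3m/m, and in Tet3-/- 9129 and 5102. Within Tet3+/+ and within Tet3-/- the clones had the same order in this sum as in Eomes. In Tet3m/m clone 3 had the highest sum and clone 2 the highest Eomes (325), and clone 1 had a sum within the Tet3+/+ range with 226 normalized counts of Eomes. The part of pluripotent cells in the Eomes values was not tested. The endoderm sum was 40001 to 57754 in Tet3+/+, 45364 to 75400 in Tet3m/m and 44257 to 53687 in Tet3-/-, with 2 of 10 genes called higher in Tet3m/m. The fibroblast sum was 17027 to 27844, 10363 to 20490 and 42382 to 47260. Of the 12 neuroectoderm markers, 8 were called lower in Tet3m/m (median log2 fold change -1.14) and 1 lower and 1 higher in Tet3-/- (median -0.87). With EV in the Dnmt1 experiment 2 of them were called higher and 5 lower in Tet3m/m (median -0.88) and 4 higher and 3 lower in Tet3-/- (median 0.06).

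**Figure D3:**
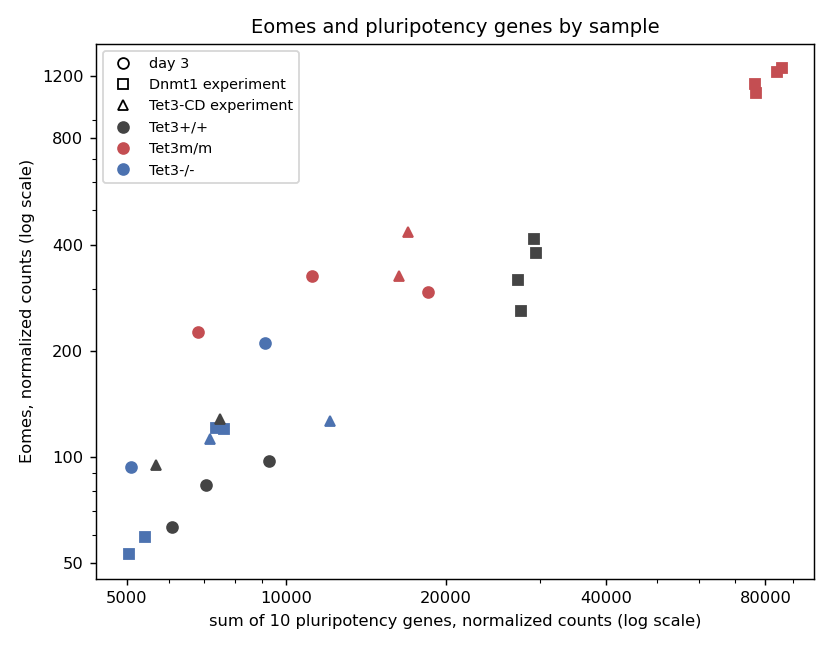
Eomes (y axis, normalized counts, log scale) against the sum of 10 pluripotency genes (x axis, normalized counts, log scale) in the 26 libraries, with genotype as colour and experiment as shape. The tables were normalized separately, so positions are best compared within a shape. The 4 Tet3m/m libraries of the Dnmt1 experiment stand at the upper right, with Eomes from 1075 to 1265.

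Transfection of Dnmt1, the maintenance DNA methyltransferase, raised Dnmt1 by 1.56-fold in Tet3+/+, 1.87-fold in Tet3m/m and 2.09-fold in Tet3-/- cells. This comparison asked whether more of the methylating enzyme changes the genes. No member was called in Tet3+/+, beside 1.17% of all genes tested. Eomes had 379 and 416 normalized counts with Dnmt1 against 259 and 318 with EV, a log2 fold change of 0.47 ± 0.13 that was under the fold threshold (limma adjusted p = 0.0419). It was the 1 member with an unadjusted limma p under 0.05, beside 3592 of the 18055 genes tested. edgeR and DESeq2 also called 0 members, but DESeq2 gave no adjusted p for Mixl1, Gsc and T and could not call them. Without the Tet3+/+ EV library at 318 the log2 fold change of Eomes was 0.62.

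In Tet3m/m, Lhx1 rose with Dnmt1, from 215 and 260 to 370 and 482 normalized counts (log2 fold change 0.83 ± 0.21, limma adjusted p = 0.0120). The 2 groups did not overlap. Lhx1 was the 1 of 6 members called, beside 2.46% of all genes. Its call was lost without the EV library at 215 (limma adjusted p = 0.130) or the Dnmt1 library at 482 (0.173). Gsc had 71.5 and 74.5 with Dnmt1 against 54.8 and 52.1 with EV and was not called (0.44 ± 0.40, adjusted p = 0.564). Eomes (1265 and 1238 against 1075 and 1145) was not called either. In the same libraries 4 of 7 fibroblast genes were called higher with Dnmt1 (median log2 fold change 0.65, sums of 2884 to 3145 with EV and 4564 to 4660 with Dnmt1). So were 4 of 12 neuroectoderm markers (median 0.43) and 4 of 16 genes of streak-inducing signals and their antagonists (median 0.31). Their part in the Lhx1 value was not tested.

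In Tet3-/-, Eomes rose from 52.8 and 59.2 to 120 and 121 normalized counts (log2 fold change 1.09 ± 0.13, limma adjusted p = 1.08e-05). It was the 1 of 6 members called, beside 3.53% of all genes, and was called under each of 23 settings tried. Its level with Dnmt1 stayed under that of Tet3+/+ with EV (259 and 318). The pluripotency sum was 7353 and 7622 in these libraries against 5040 and 5405 with EV, and 6 of its 10 genes were called higher. The other members of Tet3-/- were not called: T had 49.8 and 23.8 with Dnmt1 against 45.5 and 63.5, Gsc 14.5 and 28.6 against 13.0 and 10.6, and Mixl1 12.9 and 7.14 against 17.9 and 14.8.

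The Dnmt1 effect on Eomes was larger in Tet3-/- than in Tet3+/+ by 0.63 ± 0.19 on the log2 scale (limma adjusted p = 0.0370). This was the 1 of 6 members with such a call, beside 3.99% of all genes. The call was kept in 11 of 22 settings, with adjusted p from 0.0264 to 0.187, and was lost in 9 of the 12 fits without a single library, with the lowest difference (0.48) without the Tet3+/+ EV library at 318. Dnmt1 itself also rose more in Tet3-/- than in Tet3+/+, by 0.42 ± 0.09 on the log2 scale (limma adjusted p = 0.00502), under the fold threshold. Mean Dnmt1 in the cells given Dnmt1 was 36617 normalized counts in Tet3-/- and 23284 in Tet3+/+. The part of this Dnmt1 difference in the Eomes values was not tested. Between Tet3m/m and Tet3+/+ no member showed a called difference in the Dnmt1 effect, beside 0.604% of all genes. By limma, 1 member (Lhx1, 0.84 ± 0.29, adjusted p = 0.221) had an unadjusted p under 0.05, beside 1963 of the 18055 genes tested. edgeR also called 0 members. DESeq2 called neither Eomes nor Lhx1, and gave no adjusted p for Mixl1, Tbx6, Gsc and T, so it could not call those.

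**Figure D4:**
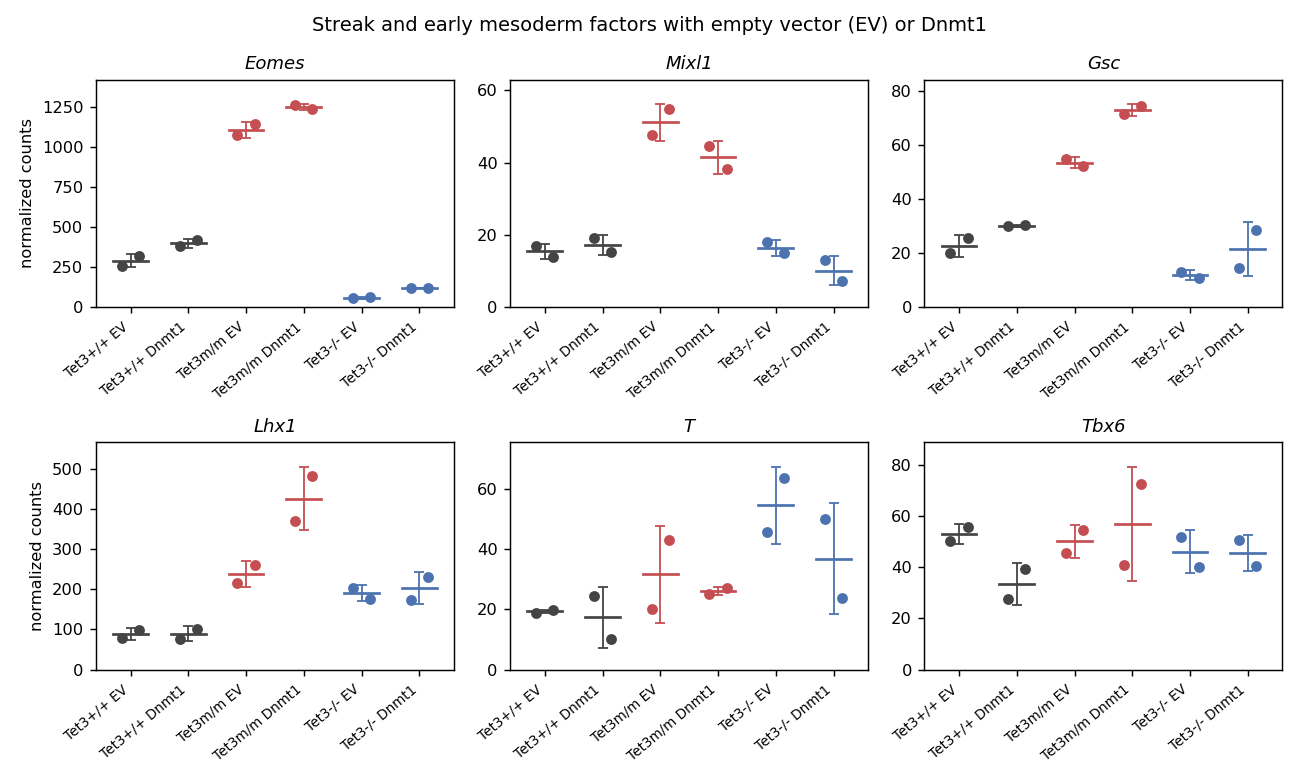
Normalized counts of 6 members (y axis, 1 scale for each gene) in each library of the Dnmt1 experiment, by genotype and vector (x axis). Points are libraries, lines are means and whiskers are SD. Eomes is highest in Tet3m/m (1075 to 1265) and lowest in Tet3-/-, where it is 52.8 and 59.2 with EV and 120 and 121 with Dnmt1.

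In the Tet3-CD experiment the catalytic domain was given back to the cells to ask whether the expression changes trace to the loss of TET3. With 1 library a group, single groups could not be tested against each other. Intervals given with these ratios are exact 95% intervals for the ratio of 2 counts, made on read pairs of the recovered counts, and cover counting error only. The log2 ratios themselves are of normalized counts + 1, and the intervals are without this pseudocount. At low counts the ratios are therefore shrunk and the intervals are not. Tet3 was 4755 normalized counts with EV and 5441 with Tet3-CD in Tet3+/+, 1850 and 5232 in Tet3m/m, and 2070 and 2759 in Tet3-/-.

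The EV libraries of this experiment gave one more view of the genotypes. Eomes had 128 normalized counts in Tet3+/+, 435 in Tet3m/m and 126 in Tet3-/-. Its log2 ratio of Tet3m/m to Tet3+/+ was 1.75 (1.35 to 2.20), and that of Tet3-/- to Tet3+/+ was -0.02 (-0.55 to 0.51). The latter value stands beside -2.34 in the Dnmt1 experiment, which was normalized separately and used blasticidin. The difference was not tested.

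Mixl1 had 4.27 normalized counts in Tet3+/+ (4 reads), 59.6 in Tet3m/m and 8.02 in Tet3-/-, a log2 ratio of 3.52 (1.83 to 6.91) for Tet3m/m. Lhx1 had 85.5, 179 and 90.2 (1.06 for Tet3m/m, 0.52 to 1.63), and Gsc had 8.55 in Tet3+/+ and 24.2 in Tet3m/m (1.40, -0.19 to 3.58). These 4 of 7 members were past 1.5-fold in Tet3m/m, all higher, beside 20.2% of 17481 genes that were past it upwards and 36.3% in either direction. In Tet3-/-, 2 of 7 members were past 1.5-fold (Mixl1 higher and Evx1 lower), beside 27.1% of all genes, and both of their intervals included 0. The pluripotency sum was 7488 in Tet3+/+, 16985 in Tet3m/m and 12101 in Tet3-/-, and the endoderm sum was 590785, 102814 and 148283.

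With Tet3-CD, Eomes was 94.8 normalized counts in Tet3+/+, 325 in Tet3m/m and 112 in Tet3-/-, each below its EV library. The log2 ratios were -0.43 (-1.01 to 0.14), -0.42 (-0.71 to -0.13) and -0.18 (-0.72 to 0.36). Only the Tet3m/m interval excluded 0. Mixl1 in Tet3m/m was 30.1 with Tet3-CD against 59.6 with EV (-0.96, -1.95 to -0.08), and stayed above the 4.27 of Tet3+/+ with EV. In Tet3+/+ it was 1.98 (2 reads) against 4.27, a ratio without precision (-0.83, -7.00 to 3.15).

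Gsc was 24.4 with Tet3-CD and 24.2 with EV in Tet3m/m, and Lhx1 was 150 and 179. Both intervals included 0. Evx1 was 15.1 with Tet3-CD against 4.01 with EV in Tet3-/- (1.69, -0.41 to 5.19), T was 38.5 against 22.3 in Tet3m/m (0.76, -0.31 to 1.95), and Tbx6 was 42.5 against 27.8 in Tet3+/+ (0.60, -0.45 to 1.73). Past 1.5-fold were 3 of 7 members in Tet3+/+ (Mixl1, Evx1 and Tbx6), beside 13.4% of all genes, 3 in Tet3m/m (T, Mixl1 and Evx1), beside 10.1%, and 1 in Tet3-/- (Evx1), beside 21.5%. Of these 7 ratios, the interval of Mixl1 in Tet3m/m alone excluded 0.

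An additive limma fit of genotype and vector over the 6 libraries, chosen after seeing the data, left 2 residual degrees of freedom and took the vector effect as equal in the 3 genotypes. Tet3 itself rose unequally (4755 to 5441 in Tet3+/+, 1850 to 5232 in Tet3m/m, 2070 to 2759 in Tet3-/-). The EV and Tet3-CD libraries of a genotype stood in for replicates, so the p-values of this fit do not measure spread between cultures or clones. Over both vectors Eomes (log2 fold change 1.76 ± 0.19, limma adjusted p = 0.00151), Mixl1 (3.45 ± 0.56, 0.00570) and Lhx1 (0.90 ± 0.24, 0.0305) were called higher in Tet3m/m than in Tet3+/+, 3 of 7 members beside 21.7% of all genes. Gsc was not called (1.31 ± 0.50, adjusted p = 0.0883). In Tet3-/- 0 of 7 members were called by this fit, beside 10.9% of all genes, with Eomes at 0.11 ± 0.19. At an unadjusted limma p under 0.05 were 0 of 7 members, beside 5312 of 17481 genes. For Tet3-CD against EV over the 3 genotypes, limma called 0 of 17481 genes (0%), with 1007 at an unadjusted p under 0.05 and no member among them. Eomes had -0.34 ± 0.16 (adjusted p = 0.731) and Mixl1 -0.74 ± 0.46 (0.742). No other tool was run on this design.

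**Figure D5:**
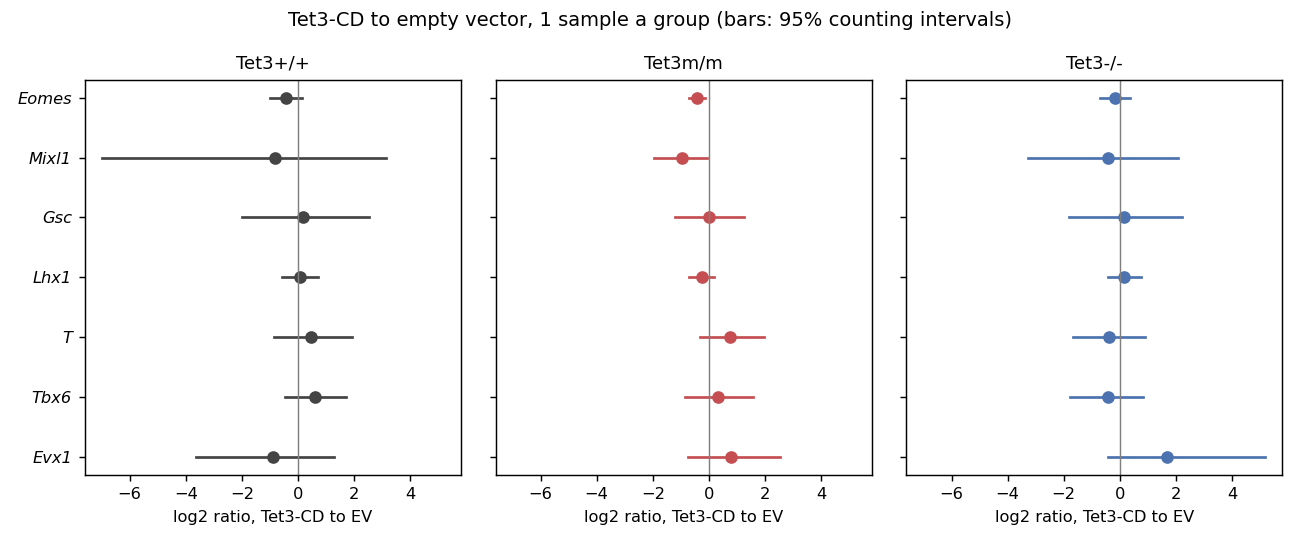
Log2 ratio of Tet3-CD to EV (x axis) for 7 members (y axis) in each genotype, from 1 library a group, where bars are 95% counting intervals. In Tet3m/m the bars of Eomes (-0.71 to -0.13) and Mixl1 (-1.95 to -0.08) do not reach 0.

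Of 16 genes of streak-inducing signals, their cofactors and their antagonists, 15 were tested at day 3. In Tet3m/m 6 were called higher and 1 lower (median log2 fold change 1.23, against 0.00 over all genes, of which 10.2% were called). By the size of the change the first were Fgf8, a ligand needed for cells to leave the streak (2.15 ± 0.61), Lefty2, a Nodal antagonist and target (1.93 ± 0.35), and Foxh1, a DNA-binding partner of Nodal-activated SMADs (1.43 ± 0.20). None of the 15 was called in Tet3-/- against Tet3+/+ (median 0.10). In the EV libraries of the Dnmt1 experiment, 9 of 16 were called higher and 3 lower in Tet3m/m (median 0.76), and 1 higher and 10 lower in Tet3-/- (median -1.09), beside 21.2% and 24.9% of all genes called. Since the list mixes inducers with inhibitors, its counts and medians do not measure induction. Fgf4 and Tdgf1 of this list are also in the pluripotency list.

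The lists of later mesoderm gave calls in both directions, to be read against the 10.2% of all genes called in Tet3m/m and 0.642% in Tet3-/- at day 3. Of 13 genes of presomitic and paraxial mesoderm, 1 was called higher and 4 lower in Tet3m/m at day 3 (median log2 fold change -0.43). The lower ones were led by Aldh1a2, the enzyme that makes retinoic acid (-1.78 ± 0.29), and Pcdh8, a protocadherin of somite-forming cells (-1.42 ± 0.29), and the higher one was Cited1, a transcriptional coactivator (1.34 ± 0.23). Of 10 genes of posterior and neuromesodermal progenitors, Wnt5b (0.94 ± 0.20) and Hoxb1 (0.93 ± 0.12) were called higher and none lower (median 0.45).

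Of 13 cardiac and lateral mesoderm genes, 3 were called higher and 1 lower in Tet3m/m at day 3 (median log2 fold change 0.22), led by Tbx20, a heart T-box factor (1.04 ± 0.24), and Hand2, lower (-0.83 ± 0.23). Of 9 genes of the node and definitive endoderm, Hhex was called higher (1.09 ± 0.16) and Cxcr4 lower (-1.39 ± 0.25), with a median of -0.24. Of 8 genes of the epithelial-mesenchymal transition, Fn1 (fibronectin) was called higher (0.63 ± 0.16, median of the list 0.06). In Tet3-/- at day 3, Cxcr4 (-2.07 ± 0.27) and Shh (-1.45 ± 0.27) were called lower and Fn1 higher (1.20 ± 0.18). These 3 calls were lost without any of the 5 libraries whose removal left 0 genes called in this comparison. Without clone 2 of Tet3+/+ the 2 genes still called were both higher, so Cxcr4 and Shh were lost there as well. None of the tested genes of the paraxial, posterior and cardiac lists was called in Tet3-/-.

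In the EV libraries of the Dnmt1 experiment, the numbers called higher and lower in Tet3m/m were 4 and 5 of 13 for the paraxial, 1 and 3 of 10 for the posterior, 5 and 3 of 13 for the cardiac, 5 and 2 of 9 for the node and 1 and 5 of 8 for the transition list. In Tet3-/- they were 2 and 4, 3 and 4, 1 and 4, 3 and 3, and 2 and 1 in the same order. Over all genes, 21.2% were called in Tet3m/m and 24.9% in Tet3-/-. Each of these lists, of 8 to 13 genes, had a larger called share in both genotypes. The lists, like the members, were not of 1 direction there, and 2 genes each of the cardiac and the node list are also in the endoderm list.

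The members did not move as a block across the 26 libraries. After the mean of each experiment was subtracted from log2(normalized count + 1), Eomes and Gsc had a Pearson r of 0.77, Eomes and Mixl1 of 0.73 and Mixl1 and Gsc of 0.49. Lhx1 had r of 0.39 to 0.52 with these 3. T and Tbx6 had r of 0.41 with each other, and T had -0.24 with Eomes. These values describe libraries that share genotypes, vectors and processing and are not independent points.

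Among 16811 genes compared in the same way over the 26 libraries, those most like Eomes were Lefty2 and Rpp25 (r = 0.97 each), and those most like Mixl1 were Nodal (0.89) and Mmrn2 (0.88). Lhx1 was most like Mras (0.90) and Rapgef3 (0.89). Gsc was most like Gm15513 and Psma2 (0.88 each), T like Rnf7 (0.80) and Ccdc189 (0.78), and Tbx6 like Gm48357 (0.76) and Vipr2 (0.70). Lefty2 had 187 normalized counts in Tet3+/+ and 748 in Tet3m/m as day 3 means, and 1040, 2888 and 88.8 in Tet3+/+, Tet3m/m and Tet3-/- with EV in the Dnmt1 experiment. Nodal, the ligand of the pathway, had means of 518 in Tet3+/+ and 1291 in Tet3m/m at day 3 (log2 fold change 1.30 ± 0.17, limma adjusted p = 0.00100) and 558 in Tet3-/- (0.10 ± 0.19, 0.808).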

How the data were processed

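RNA-seq of 26 libraries was used of 35 samples in the series. Reads had been aligned to the mouse genome with STAR and counted per gene with featureCounts, and the deposited values are the authors' signal of read counts divided by DESeq2 size factors, normalized separately in 3 tables. The study's methods name another mouse genome build (mm39) than the submitters' processing notes (mm10). No column of other samples was present, and the lowest gene means were 9.46, 9.35 and 3.87 normalized counts, so low genes were left out of the tables before deposit.

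In all libraries the deposited values were whole multiples of 1 step (tolerance 0.01 read, 100.0% of values), which gave back the reads. Of recovered counts up to 20, 70.0 to 72.6% were even, as when both mates of a pair are counted, so counting intervals used pairs.

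limma (3.58.1) with a mean-variance trend was fitted to log2(value + 1) of genes with a mean of at least 10, over all groups of an experiment. Fold changes are on this scale: the pseudocount shrinks those of low genes, and where 1 library is near 0 they can exceed the ratio of group means. Calls needed a Benjamini-Hochberg adjusted p under 0.05 over all genes and a fold over 1.5. edgeR (4.0.16) and DESeq2 (1.42.0) were run on the recovered reads. The limma, edgeR and DESeq2 fits were tested on simulated counts. Of the columns of the Dnmt1 experiment, 2 carry the same Tet3+/+ EV heading and were used as that group.

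All members and Tet3 were named, of each list the up to 3 called genes with the largest changes in a day 3 comparison, and the 2 genes most like each member. The members and lists were chosen with earlier results of these data known. RefSeq placed 92.7% of the day 3 genes for the neighbour medians. Every pair of replicate libraries differed by more than the sampling noise of single reads. The chi-square per gene was 13.84 to 87.18 among day 3 clones and 3.96 to 11.11 in the Dnmt1 experiment. Counting both mates of a pair raises these values. For genes with 20 to 200 reads over the 2 libraries they were 2.42 to 2.97 in the Dnmt1 experiment. Alternatives were other pseudocounts, filters, scalings, tools, sample sets, an additive fit of the Tet3-CD experiment, a replicate block and each library left out.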

Additional observations from a re-analysis of the deposited data

Results flagged for a closer look

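The Dnmt1 effect on Eomes differed between genotypes by the test of the difference itself: it was larger in Tet3-/- than in Tet3+/+ by 0.63 on the log2 scale (limma adjusted p = 0.0370, 2 libraries a group). This call was kept in 11 of 22 settings and was lost in 9 of 12 fits without a single library. Dnmt1 itself also rose more in Tet3-/- than in Tet3+/+ (by 0.42 ± 0.09, limma adjusted p = 0.00502), and its part in the Eomes difference was not tested. T stood out because every Tet3-/- sample lay on opposite sides of the Tet3+/+ samples in the 2 replicated experiments, with a log2 fold change of -2.46 in the day 3 clones and 1.44 in the EV libraries of the Dnmt1 experiment. The first was not called (limma adjusted p = 0.136), and the call of the second was lost without any of 3 single libraries. The difference between those T values was not tested.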

How the results depend on the processing

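The Eomes calls kept direction and side of the threshold under every setting run for Tet3m/m against Tet3+/+ at day 3 (19 settings), for Tet3m/m and Tet3-/- against Tet3+/+ with EV (22 each) and for Dnmt1 in Tet3-/- (23). With no library left out, 742 values of members were unchanged in direction and side, 6 reversed, 2 gained and 2 lost a call; with 1 library left out these were 683, 35, 6 and 17. The causes were not tested. Depth limits Evx1, Mixl1, Gsc, Tbx6 and T, which had from 0 to 85 reads in day 3 clones, and the Tet3-CD experiment has 1 library a group.

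Members called for Tet3m/m against Tet3+/+ at day 3 came to 2 with DESeq2. Genes called for Tet3-/- against Tet3+/+ at day 3 (115) came to 64 and 223 with pseudocounts of 0.1 and 5, 58 at a mean of at least 50, 917 with DESeq2, 67 with TMM and 664 with only the compared groups fitted. That fit gave 1154 genes for Tet3-/- against Tet3m/m at day 3 (main 1744), 366 for Dnmt1 in Tet3+/+ (212) and 419 for Dnmt1 in Tet3-/- (638). With no fold threshold, 8230 genes were called for Tet3m/m against Tet3+/+ with EV, 9612 for Tet3-/- against Tet3+/+ and 11852 for Tet3-/- against Tet3m/m, 1010, 1842 and 2423 for Dnmt1 in Tet3+/+, Tet3m/m and Tet3-/-, and 236 and 1753 for its difference from Tet3+/+ in Tet3m/m and Tet3-/-, and 1 member (Eomes) was called for Dnmt1 in Tet3+/+. At a mean of at least 50, which leaves fewer members, 2 were called for Tet3m/m against Tet3+/+ with EV and 1 for Tet3-/- against Tet3m/m. For the larger Dnmt1 effect in Tet3-/-, 0 members were called with a pseudocount of 5 or with only the compared groups. A pseudocount of 5 left 1 member past 1.5-fold for Tet3-CD in Tet3+/+ and 1 for Tet3-/- against Tet3+/+ with EV in that experiment. The additive fit, chosen after seeing the data, left 1 member past 1.5-fold for Tet3-CD and 1 for Tet3-/- against Tet3+/+, and reversed Evx1 for Tet3-CD in Tet3+/+ (0.52). Other reversed values were Lhx1 for Tet3-/- against Tet3m/m at day 3 (0.01 with a replicate block), Lhx1 for Dnmt1 in Tet3+/+ (0.00 with edgeR and with DESeq2), and T for the Dnmt1 effect in Tet3m/m minus Tet3+/+ (-0.07 with edgeR and -0.10 with DESeq2).

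With 1 library left out at a time, genes called for Tet3-/- against Tet3+/+ at day 3 ranged from 0 to 706, for Tet3-/- against Tet3m/m from 1146 to 2210, for Dnmt1 from 76 to 294 in Tet3+/+ and 366 to 1025 in Tet3-/-, and for the difference of the last 2 from 474 to 1086. Members called ranged from 1 to 2 for Tet3m/m against Tet3+/+ at day 3, and from 0 to 1 for Tet3-/- against Tet3m/m at day 3, for Dnmt1 in Tet3+/+ and in Tet3m/m and for the Dnmt1 difference of Tet3-/- from Tet3+/+. Log2 fold changes that crossed 0 ranged, for Tet3m/m against Tet3+/+ at day 3, from -0.26 to 1.67 (Evx1), -0.10 to 0.12 (Tbx6), -0.52 to 0.14 (Gsc) and -0.43 to 0.12 (T). For Tet3-/- against Tet3+/+ at day 3 they were -0.68 to 0.32 (Tbx6) and -1.15 to 0.05 (Gsc), and against Tet3m/m -0.70 to 0.30 (Tbx6), -0.12 to 0.06 (Lhx1) and -0.97 to 0.23 (Gsc). With EV they were -0.21 to 0.05 (Tbx6, Tet3m/m against Tet3+/+), -0.04 to 0.21 (Mixl1, Tet3-/- against Tet3+/+) and -0.31 to 0.05 (Tbx6, Tet3-/- against Tet3m/m). For Dnmt1 they were -0.02 to 0.31 (Mixl1), -0.22 to 0.20 (Lhx1) and -0.87 to 0.33 (T) in Tet3+/+, -0.28 to 0.53 (Tbx6) and -0.71 to 0.35 (T) in Tet3m/m, and -0.19 to 0.17 (Tbx6) and -0.12 to 0.29 (Lhx1) in Tet3-/-. The differences of the Dnmt1 effect from Tet3+/+ were -0.14 to 0.22 (Gsc) and -0.51 to 0.69 (T) for Tet3m/m, and -0.12 to 0.30 (Lhx1), -0.12 to 0.81 (Gsc) and -0.96 to 0.25 (T) for Tet3-/-.

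Samples with the same replicate number showed no large shared deviation (correlations of -0.098 to 0.082 at day 3 and -0.053 to 0.029 in the Dnmt1 experiment). This does not settle whether the numbers pair them. With 2 libraries a group, same-number and different-number correlations differ only in sign, so the Dnmt1 values say little. With the replicate block 98 genes were called for Tet3-/- against Tet3+/+ at day 3 (115 without it). The block could be fitted in the Dnmt1 experiment only where both groups carry numbers.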
